A study of Mus musculus with 4 samples.

Results

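The genes of the 14-3-3 adaptor proteins were read in arrays that compared 2 tissues of mouse embryos aged 10.5 dpc (days post coitum). Members were all probes whose platform gene symbol was Ywhab, Ywhae, Ywhag, Ywhah, Ywhaq, Ywhaz or Sfn, which gave 7 probes, 1 per gene, of 22702 on the array. The family as such was selected on its log2 ratios on these same 4 arrays. One tissue was metanephric mesenchyme (MM), the source of the kidney's nephrons, and the other was intermediate mesoderm (IM), from which kidney and gonad arise. Both were dissected from embryos of both sexes, with no genetic change or treatment stated, and their amplified RNA was hybridised together on 4 two-colour oligonucleotide arrays. Arrays 1 and 2 carried MM in channel 1, and arrays 3 and 4 carried it in channel 2. The labels of arrays 3 and 4 exchange the words mesenchyme and mesoderm between the tissue names, and they were read as the same tissues.

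Each deposited value is a log2 ratio of MM over IM, so a value above 0 means a higher level in MM. This direction is the likely one from the order of the titles, and the labels do not state the dye of each channel. The labels say that the channels of arrays 3 and 4 were reversed, but they do not settle the sign of those 2 arrays on its own. With that sign turned, an alternative added after seeing the data, the mean log2 ratio would be 0.38 for Ywhaq, -0.10 for Ywhah and 0.03 for Ywhab, so the means and directions over the 4 arrays below are those for the sign as deposited. The lowest value in the table is -6.64, the log2 of a ratio of 0.01, and it is read as a floor that gives no fold. A ratio says nothing of how abundant one isoform is beside another. In bulk tissue, fewer cells of a type and less RNA per cell cannot be told apart.

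14-3-3 proteins are small acidic adaptors that work as dimers and bind other proteins at phosphorylated serine or threonine. Binding holds a client in the cytoplasm, hides or exposes a surface, or keeps it in an active or inactive form. The Raf kinases, the Cdc25 phosphatases, the cell death protein Bad, the FoxO factors and the Hippo effectors Yap and Taz are among the best known clients. The isoforms overlap in the clients they bind, and they are named by Greek letters: Ywhab encodes beta, Ywhae epsilon, Ywhag gamma, Ywhah eta, Ywhaq theta, Ywhaz zeta and Sfn sigma. Sigma, also called stratifin, is best known from epithelia, where p53 induces it after DNA damage, and it prefers to pair with itself.

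Ywhaq and Ywhah were both more than 2-fold higher in MM on average and Ywhab was moderately higher, while Ywhaz and Ywhae lay close to 0. Sfn and Ywhag changed sign with the channel orientation of the array. The 3 genes Ywhaq, Ywhah and Ywhab had ratios above 0 on every array, as did 21% of all 14184 probes with 4 values. Because those ratios chose the family, the members' values are given as a description with no test. Probes of related isoforms can also pick up each other's transcripts, and probe sequences were not used here.

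The stretches upstream of the gene start are shown for the 2 genes with the highest mean ratios and, beside them, for Sfn, an isoform whose ratio changed sign with the orientation. Each is the 250 bases before the RefSeq gene start in GRCm38.p6, written 5′ to 3′ in the direction of transcription. Capitals mark the cyclic AMP response element TGACGTCA, the GC box GGGCGG, the TATA box TATAAA and the CCAAT box CCAAT, searched on both strands, where a GC box can overlap another.
Ywhah (chr5:33018566-33018815, plus strand): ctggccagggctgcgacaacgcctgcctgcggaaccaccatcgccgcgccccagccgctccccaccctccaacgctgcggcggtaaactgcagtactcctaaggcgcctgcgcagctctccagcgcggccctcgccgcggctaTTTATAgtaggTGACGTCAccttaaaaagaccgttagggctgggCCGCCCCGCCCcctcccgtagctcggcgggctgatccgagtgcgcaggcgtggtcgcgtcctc
Ywhaq (chr12:21417437-21417686, minus strand): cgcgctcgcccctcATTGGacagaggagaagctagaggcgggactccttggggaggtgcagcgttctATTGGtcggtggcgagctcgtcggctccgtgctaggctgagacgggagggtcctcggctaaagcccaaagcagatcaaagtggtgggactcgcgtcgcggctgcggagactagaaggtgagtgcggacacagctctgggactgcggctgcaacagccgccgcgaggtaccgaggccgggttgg
Sfn (chr4:133602169-133602418, minus strand): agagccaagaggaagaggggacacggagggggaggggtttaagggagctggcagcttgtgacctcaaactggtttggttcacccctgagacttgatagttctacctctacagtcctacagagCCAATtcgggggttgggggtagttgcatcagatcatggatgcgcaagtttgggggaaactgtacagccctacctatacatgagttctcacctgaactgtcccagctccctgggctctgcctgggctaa

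The Ywhah stretch held 1 match to TGACGTCA, which occurs in 1.55% of the 32851 windows of this length. It also held 1 TATA box, a motif found in 12.4% of windows, and 2 overlapping GC boxes, where 32.7% of windows hold at least 1 GC box. The Ywhaq stretch held none of those 3 motifs and 2 CCAAT boxes, a motif found in 33.9% of windows. Sfn held 1 CCAAT box and only 3 CpG dinucleotides, against 29 for Ywhah and 24 for Ywhaq and a median of 6 over all windows. Of the 2 other members with a window, Ywhae had 29 CpG and Ywhag 16, with 2 GC boxes each. Ywhab and Ywhaz were not in the table. A match is a string of letters and was not tested as a binding site, and the arrays do not bear on which sequence acts.

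Ywhaq, the theta isoform, had log2 ratios of 1.74 and 1.65 on arrays 1 and 2, then 0.91 and 0.97 on the other two. All 4 values were well above 0, but the pairs did not overlap, and the ratio was 3.24-fold on arrays 1 and 2 and 1.92-fold on arrays 3 and 4. The mean was 1.32 ± 0.44 (SD, n = 4), a 2.49-fold higher level in MM. On each array its ratio exceeded that of 87.8% to 90.9% of the probes measured there. RefSeq lists 3 pseudogenes named after Ywhaq, which the probe may also detect.

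Ywhah, the eta isoform, was the steadier of the 2 leading genes. Its log2 ratios were 1.14 and 1.07 on the first 2 arrays, then 1.30 and 1.31 on the others, so every array showed more than a 2-fold ratio. The mean was 1.20 ± 0.12 (SD, n = 4), or 2.30-fold. The orientations differed by 0.20, against 0.75 for Ywhaq and a median of 0.30 over the 13191 tested probes with no floor value. Ywhah ranked above 84.8% to 93.5% of the probes on each array.

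Ywhab, the beta isoform and a partner of the Raf kinases, read 0.38, 0.47, 0.36 and 0.38 on arrays 1 to 4. Its values lay within 0.11 of each other, the smallest range of the family. The mean of 0.40 ± 0.05 (SD, n = 4) was a 1.32-fold higher level in MM. It kept the same place in both orientations, with means of 0.42 and 0.37.

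Ywhaz and Ywhae, the zeta and epsilon isoforms, gave ratios near 1. Ywhaz stood at -0.02 and -0.13 on arrays 1 and 2 but at 0.10 and 0.07 with the channels exchanged, with a mean of 0.00 ± 0.11 (SD, n = 4). Its sign thus followed the orientation. The mean of arrays 1 and 2 less that of arrays 3 and 4 was -0.165, beyond the gaps of 0.111 and 0.034 within orientations. In size that difference exceeded those of only 28.9% of tested probes. Ywhae, which often pairs with other isoforms, read 0.00, -0.02, -0.16 and -0.23 on arrays 1 to 4, with a mean of -0.10 ± 0.11 (SD, n = 4). Neither gene's ratio exceeded 1.18-fold on any array.

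Sfn, the epithelial sigma isoform, had log2 ratios of 0.54 and 0.26 on arrays 1 and 2 against -0.76 and -0.84 on arrays 3 and 4. It was thus higher in MM in one orientation and lower in the other, and the mean of -0.20 ± 0.70 (SD, n = 4) describes neither. Its difference between orientations was 1.20, larger than that of 82.5% of tested probes. The ratios of opposite sign between orientations were common, at 39% of the 13191 tested probes with no floor value.

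Ywhag, the gamma isoform, is known for its high level in brain and muscle. It read 3.78 and 4.39 on arrays 1 and 2, the highest values of the family, and stood at the floor on both arrays 3 and 4. Arrays 1 and 2 gave 13.7-fold and 21.0-fold higher levels in MM, and arrays 3 and 4 gave no measured fold, so no mean is given. The floor pattern was shared with many probes, though few of them were as high as Ywhag on arrays 1 and 2. Of 918 probes at the floor on arrays 3 and 4 with values on arrays 1 and 2, 76.9% were above 0 on both arrays 1 and 2. The mean over arrays 1 and 2 had a median of 1.14 across the 918, and for 23 of them, Ywhag included, it was at or above that of Ywhag. Of the 292 tested probes above 2 on both arrays 1 and 2, 150 stood at the floor on both others. Why these probes were at the floor was not tested.

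**Figure D1:**
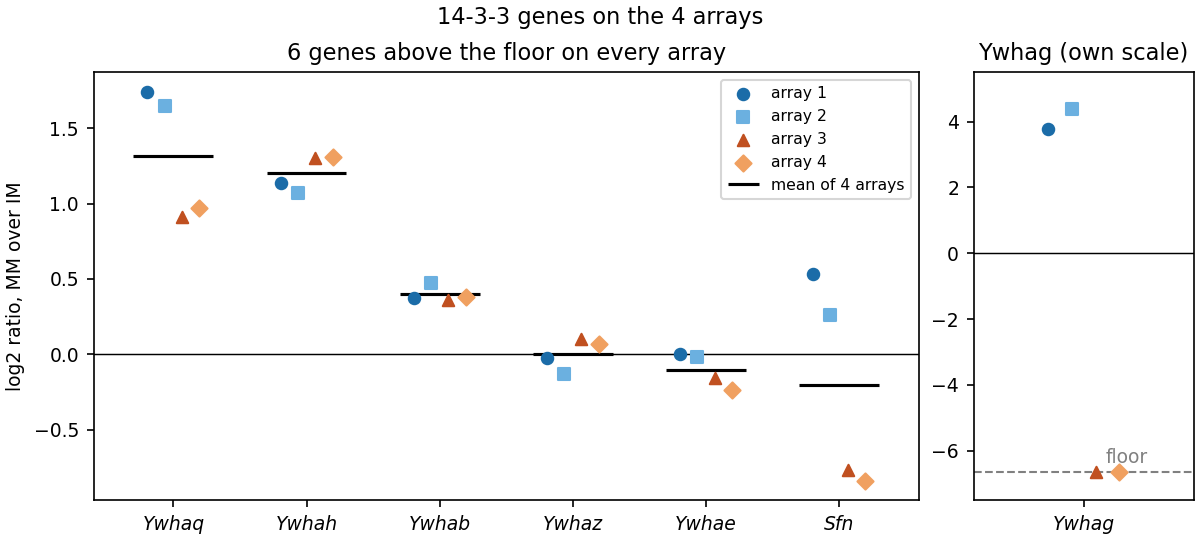
Log2 ratio of MM over IM (vertical axis) for each 14-3-3 gene (horizontal axis), with 1 point per array, and a black bar for the mean of 4 arrays in the left panel. Ywhaq, Ywhah and Ywhab lie above 0 on every array, Sfn splits into positive values on arrays 1 and 2 and negative ones on arrays 3 and 4, and Ywhag, drawn on its own scale, lies at 3.78 and 4.39 on arrays 1 and 2 and at the floor of -6.64 (dashed line) on the others.

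Among the 6 genes without a floor value the order of the means was Ywhaq, Ywhah, Ywhab, Ywhaz, Ywhae and Sfn. Ywhaq and Ywhah could not be ordered, since Ywhaq was higher by 0.60 and 0.58 on arrays 1 and 2, whereas Ywhah led by 0.39 and 0.34 on arrays 3 and 4. Both stood apart from the genes below them: Ywhah exceeded Ywhab by 0.60 to 0.94, and Ywhaq exceeded it by 0.55 to 1.37. Ywhab exceeded Ywhaz by 0.26 to 0.61 on the 4 arrays. Ywhaz, Ywhae and Sfn overlapped and changed order between the orientations. Ywhah exceeded Ywhaz by 1.16 to 1.24 on the 4 arrays.

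The family did not move as a block. The 7 ratios had medians of 0.54, 0.47, 0.10 and 0.07 on arrays 1 to 4, where the medians over all tested probes were -0.09, -0.07, -0.04 and -0.04. Ratios above 0 were counted for 6, 5, 4 and 4 members on arrays 1 to 4. Without Ywhag the other 6 genes had medians of 0.46, 0.37, 0.23 and 0.23.

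Ratios of the whole array followed the channel orientation, which bears on every value here. The number of values was 21509 and 21599 on arrays 1 and 2 but 15812 and 16242 on the others. Pearson's r across tested probes with no floor value, which are not independent replicates, was 0.836 and 0.912 within orientations and 0.113 to 0.274 between them. Over all tested probes, floor values included, it was -0.349 to -0.26 between orientations. A fit across all tested probes (limma, tissue as intercept plus an orientation term, Benjamini-Hochberg adjusted p under 0.05) called 61.9% of them. It called 4 of the 7 members, 3 as higher in MM (23.8% of all tested probes) and Ywhag, through its floor values, as lower (38.1%). The fit without the orientation term called 3968 probes, all of which the first fit called too (28% of those tested), and 3 members, Ywhaq, Ywhah and Ywhab, all higher (13.6% of those tested). The same ratios chose the family, so nothing is read from these counts.

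**Figure D2:**
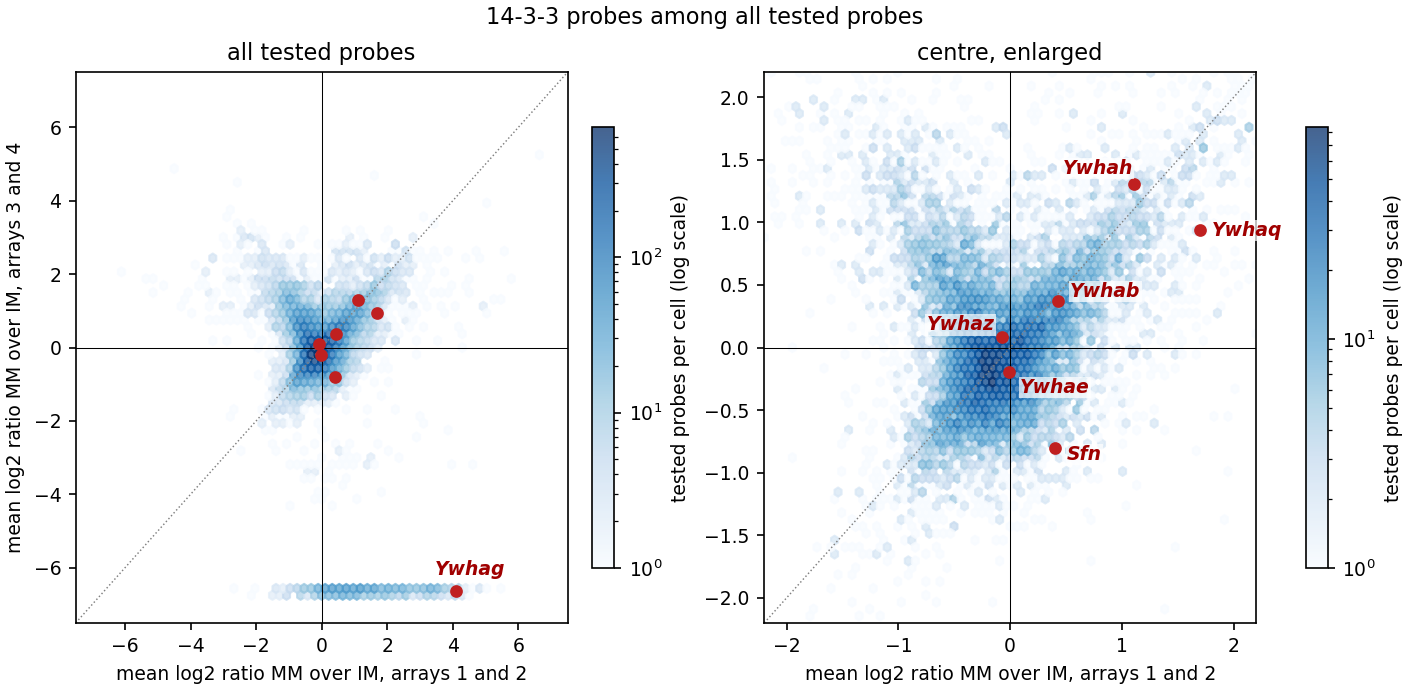
Mean log2 ratio of MM over IM on arrays 1 and 2 (horizontal axis) against that on arrays 3 and 4 (vertical axis), with all tested probes shaded by their number per cell on a log scale, the 14-3-3 probes as red points and equality as a dotted line. Ywhaq, Ywhah and Ywhab lie in the upper right part, Sfn at 0.40 and -0.80 in the lower right, and Ywhag in the row of probes at the floor on arrays 3 and 4.

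The probes most like the leading members were found by Euclidean distance over the 4 log2 ratios, among 10863 probes outside the family with 1 gene symbol and no floor value. Nearest to Ywhaq were Epha4, an ephrin receptor (distance 0.15), Rbm12b1 (0.16) and Eef2, the elongation factor of translation (0.20). Nearest to Ywhah were Ipo5, a nuclear import receptor (0.05), Idi1, an enzyme of isoprenoid synthesis (0.08), and Rsl24d1, a factor of ribosome assembly (0.08). Nearest to Ywhab were Ptprk, a receptor tyrosine phosphatase (0.04), Edem2 (0.05) and Cinp (0.05). Within a distance of 0.5 there were 47 probes for Ywhaq, 165 for Ywhah and 1122 for Ywhab. Fewer probes lie far from 0, so a low count follows from the size of the ratios and says nothing further of the genes. The likeness rests on 4 arrays of the same tissues.

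Genes that 14-3-3 proteins act on, or that write their binding sites, were read from 8 lists with 102 genes. Of these, 68 were tested, 18 had no probe with 4 values, and 16 had no probe named for them. In the fit with the orientation term, 25 were higher in MM, 19 were lower, 1 had probes in both directions, and 23 missed the threshold. A gene counts as called where any of its probes passes. The 45 called were 66.2% of the genes tested, and by probe 47 of 74 were called (63.5%), beside 61.9% of all probes. The 20 genes called in both fits (15 higher, 5 lower) were 29.4%, beside 28% of all probes. Over all tested probes 23.8% were called higher and 38.1% lower, and 13.6% and 14.4% in both fits. The counts of each list below are read beside these shares. The median log2 ratio of the tested partner genes was 0.07, beside -0.08 over all tested probes. Called partner genes numbered 32 without array 1, 28 without array 2, 26 without array 3 and 28 without array 4.

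Of 7 tested cell cycle clients, 4 were higher and 3 lower in MM (3 and 1 in both fits). Wee1, the kinase that holds mitosis back, was 4.05-fold higher (2.02 ± 0.46, SD, n = 4, limma adjusted p = 0.000778). It read 2.55, 2.24, 1.59 and 1.69 on arrays 1 to 4. The phosphatases that oppose it, Cdc25a (1.12 ± 0.53) and Cdc25b (0.79 ± 0.17), which 14-3-3 proteins keep in check, were higher as well. Cdc25c was slightly lower (-0.13 ± 0.09) and passed only with the orientation term, a call that was lost without any 1 of the 4 arrays. Mdm4, an inhibitor of p53, was lower by 1 probe (-0.33 ± 0.06). The other Mdm4 probe, which lacked a value on array 3 and was not tested, read 0.26, -0.08 and -0.065 on arrays 1, 2 and 4. The lower call of Cdkn1b rested on the floor on arrays 3 and 4.

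Among kinases that phosphorylate 14-3-3 binding sites, 12 were tested, with 3 higher, 4 lower and 5 not passing (3 and 2 in both fits). Akt1, which writes the sites of Bad and the FoxO factors, was 1.97-fold higher in MM (0.98 ± 0.10, SD, n = 4, limma adjusted p = 0.00118). It read 0.99, 1.07, 0.84 and 1.01 on arrays 1 to 4, positive on each. Mark3, which marks Cdc25 and Ksr proteins for binding, was higher (0.86 ± 0.27), and Prkaca, the catalytic subunit of protein kinase A, was lower (-0.37 ± 0.09).

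Of 4 tested genes of the Raf list, 2 were higher and 1 lower, and 1 was called in both fits. That gene, Map2k1, encodes the kinase that Raf proteins activate and was higher (0.54 ± 0.28). Of 6 tested apoptosis and stress clients, 3 were higher and the other 3 did not pass, and 1 was called in both fits, the protease gene Casp2 (0.29 ± 0.11). The Casp2 call was lost without array 1, 2 or 3. Bad split by orientation as Sfn did, at 0.71 and 0.78 on arrays 1 and 2 against -0.45 on each of the others, and its call as higher passed only with the orientation term and was lost without array 3 or array 4. Foxo1 (0.11 ± 0.21, adjusted p = 0.104) did not pass. The probes of Foxo3 disagreed, at 0.13 ± 0.12 and -0.16 ± 0.67, and the first, the only one that passed, did so only with all of arrays 2, 3 and 4 in the fit. A further Foxo3 probe lacked a value.

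In the Hippo list, the tested effectors that 14-3-3 proteins hold in the cytoplasm had ratios on opposite sides of 0. Yap1 was higher in MM (0.29 ± 0.13), a call that was lost without array 3 or array 4, and Wwtr1, which encodes Taz, was lower (-0.61 ± 0.40), passed only with the orientation term and was lost without array 2. The difference between Yap1 and Wwtr1 was not tested. Lats2, the kinase that writes their 14-3-3 sites, was lower by both probes (-0.68 ± 0.18, and -0.44 ± 0.41 only with the orientation term), and Mob1a, its activator, was lower by one probe (-0.28 ± 0.06) and at -0.07 ± 0.04 by the other. Of 9 genes tested in this list, 3 were higher, 4 lower and 2 did not pass (1 and 2 in both fits).

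In the insulin and TOR list, 12 genes were tested, with 4 higher, 2 lower and 6 not passing, and the 4 higher ones were called in both fits. Tbc1d1, a regulator of glucose transporter traffic, was higher (1.28 ± 0.65), as were the insulin receptor substrate Irs2 (0.49 ± 0.09) and, by one probe, Rictor of TOR complex 2 (0.34 ± 0.09). The other Rictor probe, which lacked a value on array 3 and was not tested, read -0.70, -0.14 and -0.63 on arrays 1, 2 and 4. Irs1 read 0.05 ± 0.42 (adjusted p = 0.59), negative on arrays 1 and 2 and positive on arrays 3 and 4. Tsc2, a TOR inhibitor that 14-3-3 binds, was lower (-0.23 ± 0.12) with the orientation term alone, a call that was lost without array 3 or array 4.

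Of 11 tested cytoskeletal and polarity clients, 5 were higher, 2 were lower and 4 did not pass, and 2 of the higher ones were called in both fits. The polarity protein Pard3 (0.58 ± 0.16) and Ppp1r12a, a subunit of myosin phosphatase (0.52 ± 0.07), were higher in MM. Class IIa deacetylases and CREB coactivators had small averages over the 4 arrays, from -0.21 to 0.21 by gene. Of 7 tested, 1 was higher, 3 were lower, 1 was called both ways and 2 did not pass. Each call was made only with the orientation term. The list median was 0.12 on arrays 1 and 2 but -0.38 on arrays 3 and 4, so small averages can hide a split by orientation. For example, 1 Crtc3 probe read 0.93, 0.78, -0.44 and -0.52 on arrays 1 to 4, while Hdac7 and Mef2c each kept 1 sign. Hdac4 was not analysed here.

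**Figure D3:**
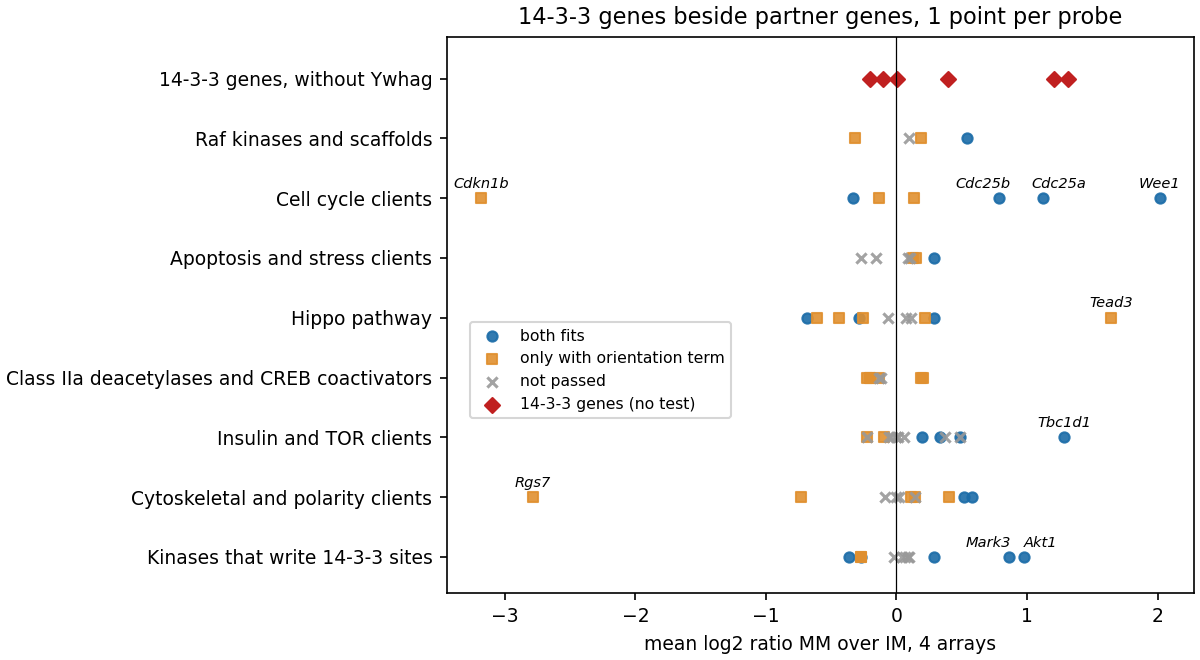
Mean log2 ratio of MM over IM over 4 arrays (horizontal axis) for the 6 members without floor values (top row, red, no test) and for each tested probe of the 8 partner lists (rows), with symbols for probes called by limma in both fits, only with the orientation term, or not. Wee1, Tead3, Tbc1d1 and Cdc25a lie above 1, and the outlying Cdkn1b and Rgs7 rest on floor values.

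Marker genes of the dissected tissues were present, with mixed directions. Of 7 tested MM markers, 4 were higher in MM and 2 did not pass. The 4 were Six2, Crym, Hoxa11 and Gdnf, with mean log2 ratios of 1.92 to 3.00. Itga8 had the split of Ywhag, at 3.67 and 4.16 on arrays 1 and 2 but at the floor otherwise. Of 5 genes listed for IM, Osr1 was higher, Wt1 and Pax8 were lower in MM and 2 did not pass. Whether these genes tell IM from MM was not tested. Lists of other cell types are read beside the 61.9% of all tested probes called (23.8% higher, 38.1% lower), and 28% in both fits (13.6% higher, 14.4% lower). Of 11 tested epithelial markers 9 were higher and 1 lower (5 and 1 in both fits), with a median log2 ratio of 0.53 and gene averages from -0.26 to 2.10. The junction genes Cldn6 (2.10 ± 0.77) and Cldn7 (1.36 ± 0.36) and the adhesion gene Epcam (1.87 ± 0.06) were positive on all 4 arrays, and one Grhl2 probe (-0.26 ± 0.05) was negative on all 4. Others split by orientation: Perp was positive on arrays 1 and 2 alone, as Sfn was, at 0.90, 1.02, -0.32 and -0.24 on arrays 1 to 4, while Cdh1 and Krt15 were negative on arrays 1 and 2 and positive on arrays 3 and 4. Of 13 tested neural markers 3 were higher and 9 lower (1 and 6 in both fits), with a median of -0.49. Of 6 muscle markers 1 was higher and 5 lower, of 5 erythroid markers 2 were higher and 2 lower, and of 6 endothelial markers 3 were higher and 2 lower. The part of these cell types in the ratios of the 14-3-3 genes was not tested.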

How the data were processed

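The deposited table holds 1 log2 ratio per probe and array, without intensities; how far signals stood above background is thus unknown, and precision is limited by the number of arrays. Per the labels, the authors quantified spots with Imagene 5.5, reversed the channels of arrays 3 and 4, fitted a lowess curve with 20.0% of the data at each point, applied it to the control channel and raised control values under 10 to 10. For background correction and spot filters, the method is not given in the sources used here. Platform gene symbols were updated by gene ID or accession through a RefSeq table (16572 of 17252 probes with 1 symbol matched). Of 22702 probes, 14184 had 4 values and were fitted with limma 3.58.1 in R 4.3.3, with Benjamini-Hochberg adjustment over all of them. The fit was run on simulated data with the form of orientation effect that it assumes and independent noise between arrays. That check cannot show whether shared extracts affect the calls. Whether the arrays came from separate extracts is not stated, so the spread between arrays may be technical. The adjusted p-values given come from the fit with the orientation term and measure only the spread between arrays of the same orientation. Across tested probes with no floor value, that gap had medians of 0.095 and 0.089, against 0.302 between orientation means. SDs are over 4 arrays and include the difference between orientations. Members, partner lists, markers and tests were chosen with earlier results of these data known. The genes named were the 7 members, 11 well known clients where measured, and in each list up to 3 others of largest mean called in both fits with 1 sign and no floor value, plus markers as lists. Genes outside this rule (Cdkn1b, Rgs7, Tead3, and those of the closing section) were named after their values were seen. Alternatives were no orientation term, centring, scaling, no floor probes, 3 or more values, each orientation alone or averaged, each array left out and, added after seeing the data, the sign of arrays 3 and 4 turned.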

Additional observations from a re-analysis of the deposited data

Results flagged for a closer look

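Among 32 probes of the members and named partners, 2 had 1 array far from the other 3. Chance alone passes the limit used in about 1 in 20 sets of 4 values drawn alike. These arrays form 2 pairs by orientation, and many of the probes were named for their values, so that rate need not hold here. Pard3 averaged 0.58 and read 0.35 on array 2 against 0.63 to 0.68 on the others. Prkaca averaged -0.37 and read -0.24 on array 2 against -0.43 to -0.40 on the others. Both kept their limma call without array 2.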

How the results depend on the processing

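Of 14184 tested probes, 8779 were called, and 45 partner genes. Without the orientation term 3968 probes and 20 partner genes were called, and on arrays 1 and 2 alone 5614 and 28. With each orientation averaged, limma called 0 probes and 0 partner genes (1526 and 5 at an unadjusted p under 0.05); that fit has fewer values per probe. Leaving out 1 array gave 5808 to 6782 probes and 26 to 32 partner genes. For both counts, centring, scaling, leaving out floor probes, admitting 3 values and using arrays 3 and 4 alone stayed within 1.5 times. Of 69 recomputed member means, 5 were counted as reversed, a label given only to members called by the fit. The uncalled Ywhaz, Ywhae and Sfn changed sign in some settings, which was not counted. Reversed means of Ywhag were 4.09 on arrays 1 and 2 alone and 0.51 without array 3 or array 4 (-3.17 to 0.51 without each array), where fewer floor values enter. Ywhab moved beyond its SD with arrays centred (0.46) and scaled (0.47). The mean of Sfn was 0.40 on arrays 1 and 2, -0.80 on arrays 3 and 4 and -0.45 to 0.01 without each array. Of 325 recomputed partner ratios, 213 kept a call, 34 stayed uncalled, 64 lost a call, 4 gained one and 10 reversed, among them Bad on arrays 3 and 4 alone (-0.45). With the sign of arrays 3 and 4 turned, an alternative chosen after seeing the data, 6332 probes and 37 partner genes were called. The means then were 0.38 for Ywhaq and 0.03 for Ywhab, while the uncalled Ywhaz (-0.08), Ywhae (0.09) and Sfn (0.60) changed sign. Values counted as reversed were -0.10 for Ywhah, 5.36 for Ywhag, 0.07 for Cdc25c, 0.034 for Mdm4 and -0.10 for one Foxo3 probe. Further ones were -0.071 for Casp2, 0.33 for Wwtr1, -0.34 for Irs1, 0.10 for Tsc2, -0.091 for Pard3 and 0.048 for Prkaca. Each ratio already pairs the 2 tissues on an array, and the arrays form 1 group, so no replicate number could be used as a block.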

Other observations

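Some partner genes could not be tested because a value was missing, and several probes of such genes, named after their values were seen, were high on arrays 1 and 2 and at the floor or without a value on the others. Prkacb, a catalytic subunit of protein kinase A, read 4.51 and 4.56 on arrays 1 and 2, lacked a value on array 3 and stood at the floor on array 4. Ctnnb1, beta-catenin, read 2.85 and 4.47 on arrays 1 and 2 with the same gap and floor. One probe of Zfp36l1, a protein that directs decay of mRNA, read 1.06 and 4.39 with that gap and floor, and one of Tead4, a partner of Yap, read 1.53 and 1.59 on arrays 1 and 2, stood at the floor on array 3 and lacked a value on array 4.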
